A study of Mus musculus with 2 samples.

Results

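The 10 genes described here encode transcription factors that set or hold the identity of T helper cells: Tbx21, Eomes, Gata3, Rora, Bcl6, Runx1, Runx3, Zbtb7b, Id2 and Id3. They were taken by name from the array table, through probe sets annotated with exactly 1 gene symbol, and make up 10 of the 19937 genes that could be named in this way. Each was measured by 1 probe set.

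A naive CD4 T cell becomes a TH1, TH2, TH17 or follicular helper (TFH) cell when cytokine receptors and STAT proteins switch on a master factor, and these factors hold each other in check. T-bet (Tbx21) directs TH1 cells, GATA3 directs TH2 cells, ROR factors direct TH17 cells and BCL6 directs TFH cells. RUNX factors and ThPOK (Zbtb7b) set the choice between the CD4 and CD8 lineages, and ID proteins block the DNA binding of E proteins. TR1 cells are IL-10-producing CD4 T cells that lack FOXP3 as their lineage factor, and the IL-10 receptor signals mainly through STAT3.

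The impaired cells were TR1 cells of CD4-DNIL-10R transgenic mice, in which a dominant-negative IL-10 receptor is driven by Cd4 regulatory sequence, as the name of the transgene gives it. The wildtype cells were TR1 cells of mice with an intact receptor. Both came from the small intestine of mice given 2 doses of 15 μg anti-CD3 antibody, which activates T cells through the T cell receptor. The cells were collected 4 or 48 hours after the last dose, and the labels do not say which time belongs to which sample, how many mice were pooled, how the cells were sorted or how old the mice were. The comparison asks which transcripts differ when TR1 cells cannot signal normally through this receptor.

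Values are RMA expression on the log2 scale. There was 1 array per genotype, which leaves no replicate spread and allows no test. Il10ra, the ligand-binding chain, stood at 12.30 in impaired cells, against 9.92 in wildtype cells, and whether its probe set detects the transgene is not known. The TR1 markers Il10 (12.92 in impaired cells, against 12.94 in wildtype cells), Lag3 (11.36 in impaired cells, against 11.41 in wildtype cells) and the lineage marker Cd4 (13.18 in impaired cells, against 13.14 in wildtype cells) were bright in both. Of the 13 TR1 markers measured all reached the floor, 6.91 on the log2 scale, the median of all probe sets after averaging the arrays.

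The lineage factors were close in level between the 2 samples. None of the 10 differed by 2-fold, against 1.65% of the 11124 genes past the floor in either direction, and none differed by 1.5-fold, against 7.39%. Both background shares are small beside a set of 10 genes, so these counts of 0 do not set the lineage factors apart. In all, 8 of the 10 were above 0 (impaired minus wildtype), where 50.2% of genes past the floor were, and the median difference was 0.10, where that of all genes past the floor was 0.00. Eomes and Id3 passed the floor through the impaired sample, where they were brighter, and with the floor asked of both samples 6 of 8 were above 0. Of the 10 differences, 6 lay no more than 0.12 from 0, and the other 4 were Zbtb7b, Id3 and Eomes on the brighter side and Bcl6 on the dimmer side. Among the 6, the share of genes past the floor with a larger absolute difference ran from 64.8% for Runx1 to 75.9% for Rora. For the other 4 that share was 14.9% for Zbtb7b, 21.2% for Id3, 21.6% for Bcl6 and 32.1% for Eomes. All 10 lay within the middle 95% of genes of like level, meaning those past the floor with a mean within 0.5 of the factor's own. RNA of whole cell samples was measured, so fewer cells that express a gene and less RNA per cell cannot be told apart.

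**Figure D1:**
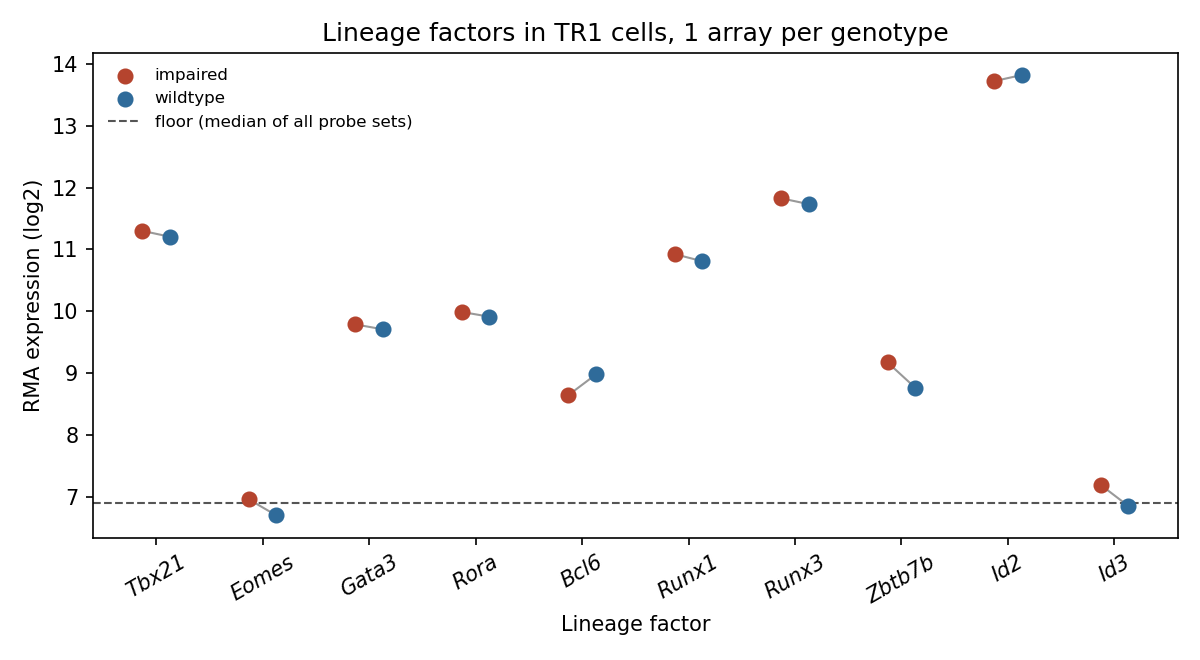
RMA expression (log2) of the 10 lineage factors, with the impaired sample left of the wildtype sample for each gene and 1 array per point. The dashed line is the floor at 6.91, which the wildtype values of Eomes and Id3 do not reach. Levels may be compared only within a gene, since probe sets differ in brightness.

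**Figure D2:**
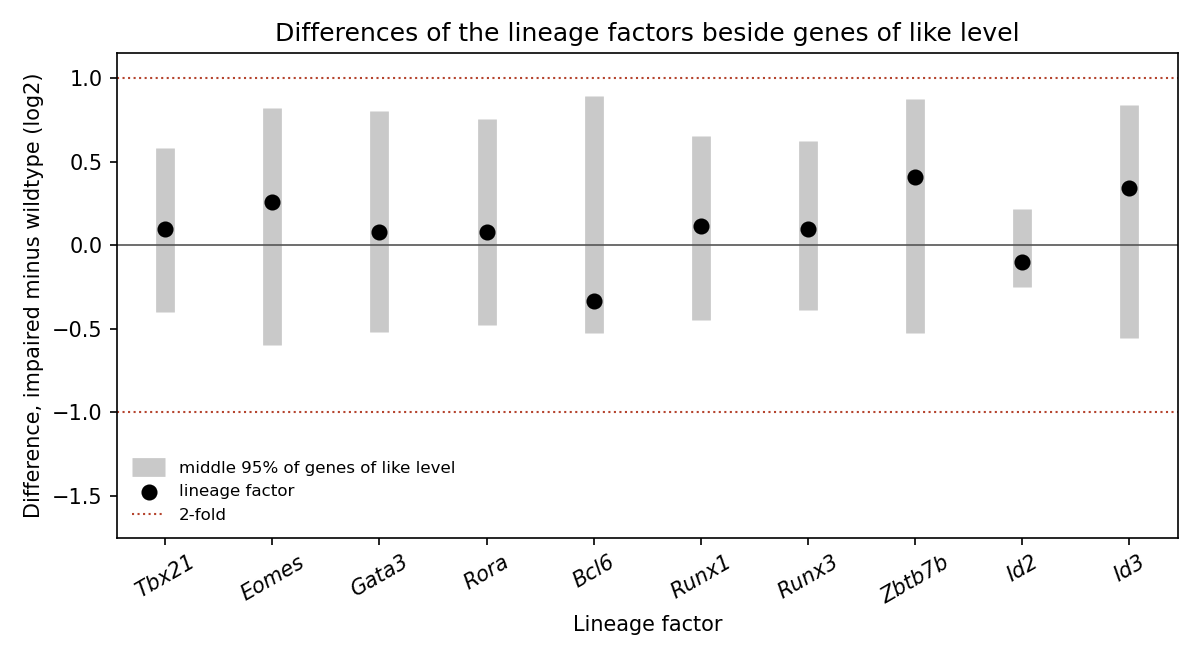
Difference (log2, impaired minus wildtype) of each lineage factor as a point. Grey bars span the middle 95% of genes past the floor with a mean level within 0.5 of that factor, and dotted lines mark 2-fold. All 10 points lie inside their bars, from Bcl6 at -0.34 to Zbtb7b at 0.41.

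Both TH1 factors were slightly brighter in impaired cells. Tbx21, which encodes T-bet and switches on interferon gamma, stood at 11.30 in impaired cells, against 11.20 in wildtype cells, a difference of 0.10 or 1.07-fold. Eomes, a T-box relative of T-bet in cytotoxic and memory T cells, stood at 6.96 in impaired cells, against 6.70 in wildtype cells, a difference of 0.26 or 1.20-fold. Both values of Eomes were near the floor and the wildtype value was below it, where RMA values keep part of their background. The 1661 genes of like level had a median difference of 0.16. Natural killer cells are another known source of Eomes. Of the 8 measured genes in that list, 3 passed the floor: Eomes itself, Gzma, which is also in the TH1 list and differed by -0.26, and Tyrobp. Tyrobp, an adaptor of natural killer and myeloid cells, stood at 8.01 in impaired cells, against 6.99 in wildtype cells (1.03). The receptors Ncr1 (5.21 in impaired cells, against 5.35 in wildtype cells) and Klrb1c (6.69 in impaired cells, against 6.78 in wildtype cells), both named after their values were seen, were below the floor. The part of natural killer cells in the Eomes values was not tested.

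Genes of the T-bet and EOMES program mostly lay on the other side of 0. Of 20 TH1 and cytotoxic genes past the floor, 15 were dimmer in impaired cells and 5 brighter, with a median of -0.13, against 49.5% of all genes past the floor that were dimmer. None reached 1.5-fold, against 7.39% of genes past the floor in either direction. Fasl, the death ligand, had a difference of -0.31, Txk, a kinase of TH1 cells, -0.29, and Prf1, which encodes perforin, -0.28. Ifng, the main TH1 cytokine, stood at 12.29 in impaired cells, against 12.50 in wildtype cells (-0.22). Il12rb1, a receptor chain for IL-12, went the other way at 0.29. Markers of CD8 and gamma-delta T cells, which also carry cytotoxic granules, were dimmer for 5 of 6 genes, with a summed linear signal of 26578 in impaired cells, against 33775 in wildtype cells. Gzma stands in both lists, and without the 3 genes that are also in the T cell lists the sum was 8627 in impaired cells, against 11249 in wildtype cells. The part of these cells in the TH1 values was not tested.

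Gata3 and Rora differed by nearly the same small amount. Gata3, the zinc finger factor of TH2 cells, stood at 9.79 in impaired cells, against 9.71 in wildtype cells, a difference of 0.08. Rora, which encodes ROR-alpha of TH17 cells and innate lymphoid cells, stood at 9.99 in impaired cells, against 9.91 in wildtype cells, also 0.08. Neither gene thus stood out between the samples in either direction.

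The programs of these factors had larger median differences than the factors. Of 11 TH2 genes past the floor, 10 were brighter in impaired cells, against 50.2% of all genes, and the median was 0.25. Only 1 passed 1.5-fold, against 5.89% of all genes past the floor, so this count does not set the list apart. Il4, the TH2 cytokine, stood at 9.13 in impaired cells, against 8.28 in wildtype cells (0.86), Ccr8, a chemokine receptor, differed by 0.51, Pparg, a nuclear receptor, by 0.44, and Ccr4 by 0.43. The TH2 cytokines Il5 and Il9, named after their values were seen, were below the floor in both samples. Of 14 TH17 genes past the floor, 11 were brighter, with a median of 0.66, and 9 passed 1.5-fold, against 5.89% of all genes past the floor. Il17a, the cytokine that defines TH17 cells, stood at 10.60 in impaired cells, against 9.60 in wildtype cells, a difference of 0.99 or 1.99-fold. Tmem176b differed by 0.88, Ccr6 by 0.83 and Tmem176a by 0.81.

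Other cells of the gut also make genes of these programs. Ccr6 is made by B cells, Tmem176a and Tmem176b by myeloid cells and Ccl20 (0.71, named after its value was seen) by epithelial cells. Of the B cell list only Blnk (0.99) and Cd79b (0.60) passed the floor, and Ms4a1, Cd79a and Pax5 were below it in both samples, named after their values were seen. The summed linear signal of the 9 measured B cell markers was 1434 in impaired cells, against 997 in wildtype cells. Macrophage and monocyte markers were brighter for 5 of 7 past the floor, against 50.2% of all genes, with a median of 0.18. Among them were Lyz2 at 1.78, Tyrobp at 1.03, Cd14 at 0.98 and Cybb at -0.55. Some, Cd14 among them, passed through the impaired sample alone. With the floor asked of both samples 3 were brighter, with a median of 0.09. The summed signal of macrophage and monocyte markers was 5246 in impaired cells, against 5171 in wildtype cells. Dendritic cell markers were brighter for 2 of 3 past the floor, and enterocyte markers for 16 of 16, with a median of 0.90. The lists of innate lymphoid cells share genes with the programs, and without those and Cd4, as chosen after seeing the data, few were left. For group 3 cells these were Kit (0.18) and Tnfsf11 (0.36), with a summed signal over 4 measured genes of 857 in impaired cells, against 706 in wildtype cells. For group 2 cells they were Nmur1 (0.67), Il17rb (0.39) and Kit again, with a sum over 4 measured genes of 1154 in impaired cells, against 890.2 in wildtype cells. The part of any of these cells in the TH2 and TH17 values was not tested.

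Within the GATA family, the genes known from gut epithelium had larger differences than Gata3. Gata4, Gata5 and Gata6, factors of the gut epithelium, differed by 0.71, 0.82 and 0.61. All 3 passed 1.5-fold, where 5.89% of all genes past the floor did in this direction. Gata5 stood at 8.95 in impaired cells, against 8.13 in wildtype cells, while Gata3 differed by 0.08. Gata2, a factor of mast cells and blood progenitors, stood at 7.04 in impaired cells, against 6.79 in wildtype cells (0.24), close to the floor. Enterocyte markers were brighter in impaired cells for 16 of 16 genes, against 50.2% of all genes past the floor, with a median of 0.90. The part of epithelial cells in the GATA values was not tested. Among other T-box genes, Tbx3 differed by 0.44, Tbx2 by 0.20, Tbx6 by 0.16 and Mga by -0.21, and the other 9 of 13 measured were below the floor in both samples.

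**Figure D3:**
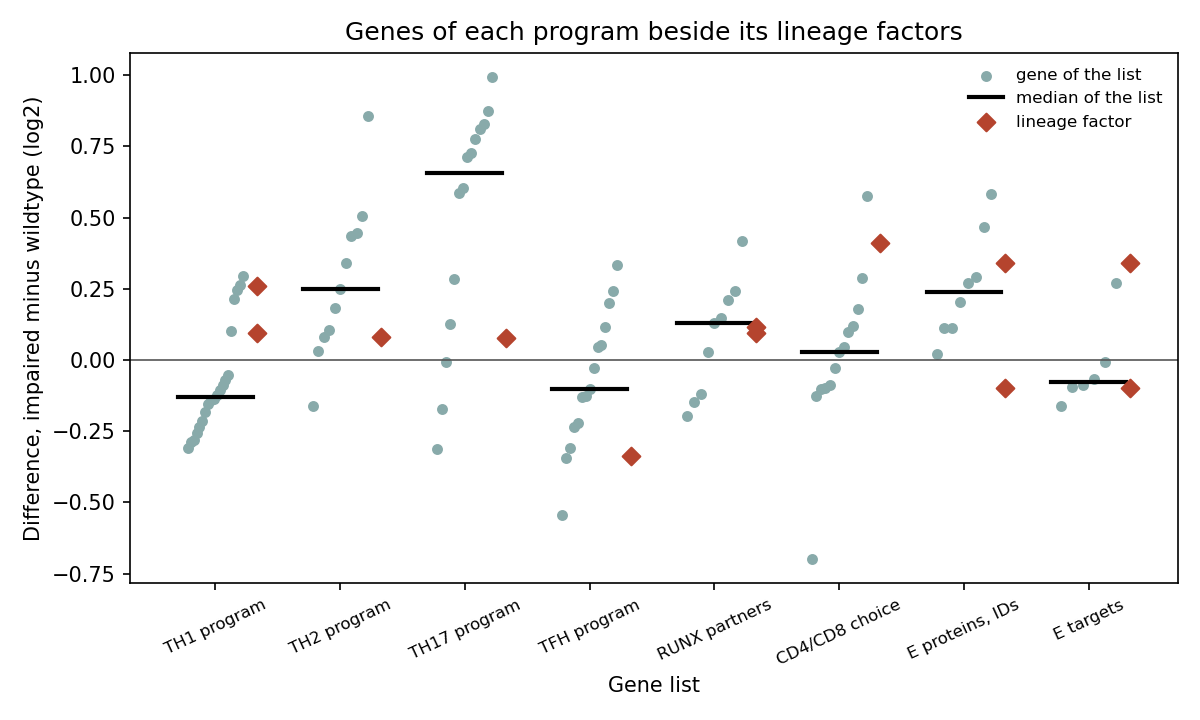
Difference (log2, impaired minus wildtype) of the genes past the floor in each list, with the list's median as a bar and its lineage factors as diamonds: Tbx21 and Eomes, Gata3, Rora, Bcl6, Runx1 and Runx3, Zbtb7b, and Id2 with Id3 beside both E protein lists. TH17 genes have a median of 0.66 beside Rora at 0.08, and TH1 genes one of -0.13 beside Tbx21 at 0.10.

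Bcl6 had the lowest difference of the lineage factors. It encodes a zinc finger repressor that directs TFH cells and is opposed by BLIMP-1. Bcl6 stood at 8.64 in impaired cells, against 8.98 in wildtype cells, a difference of -0.34, or 1.26-fold higher in wildtype cells. Of all genes past the floor 8.62% had a lower difference, and the middle 95% of the 2636 genes of like level ran from -0.52 to 0.89. Prdm1, which encodes BLIMP-1, stood at 11.97 in impaired cells, against 12.17 in wildtype cells (-0.20), so both opposing factors were dimmer in impaired cells.

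Other genes of the TFH program lay on both sides of 0. Of 15 past the floor, 9 were dimmer in impaired cells and 6 brighter, with a median of -0.10. Of all genes past the floor, 49.5% were dimmer. None of the 15 reached 1.5-fold, against 7.39% of all genes in either direction, so these counts do not set the list apart. Sh2d1a, the adaptor SAP needed for help to B cells, differed by -0.54, Cd200 by -0.34 and Il21, the TFH cytokine, by -0.31 (11.55 in impaired cells, against 11.86 in wildtype cells). Slamf6, a receptor that uses SAP, went the other way at 0.33. Cxcr5, the homing receptor of TFH cells, stood at 6.07 in impaired cells, against 5.71 in wildtype cells, and did not reach the floor in either sample. Co-repressors and opponents of BCL6 had a median of -0.02 over 10 genes, with Hdac4 at -0.31, Cul3 at -0.23, Klf2 at 0.29 and Bach2 at 0.29. Germinal centre B cells also make Bcl6. Their list had 4 of 7 measured genes past the floor, and 3 of them were brighter in impaired cells, where 50.2% of all genes were. The summed signal of the list was 1423 in impaired cells, against 1225 in wildtype cells.

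The upstream sequence of Bcl6 is shown because Bcl6 is a known target of STAT factors and because Bcl6 alone among the lineage factors held the STAT motif. RefSeq (GRCm38.p6) gave 14 transcription start windows for the 10 genes, 4 of which have 2. The 250 bases before each start were searched for the palindromic STAT motif TTCNNNGAA, which overlaps the motif bound by BCL6 itself. It stood in 2 of the 14 windows, both of Bcl6, and in 7.02% of 32851 windows of all genes. The upstream start of Bcl6 had 1 match and the downstream start 3, a number reached by 9 of all windows (0.0274%), a count made after the sequence was seen. Both are on the minus strand, given 5′ to 3′ and ending at the base before the start, with the motif in capitals. The upstream one is chr16:23988853-23989102 and the downstream one chr16:23981284-23981533.
Bcl6 upstream start: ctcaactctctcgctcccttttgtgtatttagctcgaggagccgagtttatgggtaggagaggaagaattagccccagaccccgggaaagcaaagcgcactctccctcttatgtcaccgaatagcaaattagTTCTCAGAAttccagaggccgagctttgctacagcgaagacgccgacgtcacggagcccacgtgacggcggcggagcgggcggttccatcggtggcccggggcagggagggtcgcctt
Bcl6 downstream start: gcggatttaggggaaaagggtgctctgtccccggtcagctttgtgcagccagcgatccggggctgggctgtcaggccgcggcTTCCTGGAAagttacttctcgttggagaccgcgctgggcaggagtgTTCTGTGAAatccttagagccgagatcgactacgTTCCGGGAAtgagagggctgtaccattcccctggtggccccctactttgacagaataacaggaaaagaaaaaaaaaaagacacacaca
The match of the upstream start begins at -118, and those of the downstream start at -168, -122 and -88, where -1 is the base before the start. These are matches of letters, and neither binding nor the start used was measured, since the 1 probe set gives 1 value for the gene.

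Runx1 and Runx3 differed by nearly the same amount. Both encode Runt-domain factors that bind DNA with CBF-beta. Runx1, which acts in T cell development, stood at 10.92 in impaired cells, against 10.81 in wildtype cells, a difference of 0.12. Runx3, which silences Cd4 in CD8 cells and works with T-bet in TH1 cells, stood at 11.83 in impaired cells, against 11.73 in wildtype cells, a difference of 0.10. The ratio of the 2 genes thus differed by 0.02 on the log2 scale. Cbfb, their common partner, stood at 10.97 in impaired cells, against 11.09 in wildtype cells (-0.12). Runx2, the other gene of the family, was not analysed here.

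Groucho/TLE co-repressors, which RUNX proteins recruit, gave the larger values among the partners. Tle3 differed by 0.42 (10.56 in impaired cells, against 10.14 in wildtype cells), Tle1 by 0.24 and Tle5 by 0.21. Cbfa2t2, a co-repressor of another family, differed by -0.20. Of 9 partners past the floor, 6 were brighter in impaired cells, against 50.2% of all genes past the floor. None reached 1.5-fold, against 7.39% in either direction, so neither count sets the partners apart. The wildtype value of Tle1 was below the floor.

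Zbtb7b had the highest difference of the lineage factors. It encodes ThPOK, which commits thymocytes to the CD4 lineage and represses Runx3 and CD8 genes. Zbtb7b stood at 9.18 in impaired cells, against 8.77 in wildtype cells, a difference of 0.41 or 1.33-fold, and 90.0% of genes past the floor had a lower one. The middle 95% of the 2586 genes of like level ran from -0.52 to 0.88, so this value too lay inside. Runx3, which ThPOK opposes, differed by 0.10, and the ratio of Runx3 to Zbtb7b by -0.32.

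Genes of the CD4 and CD8 choice lay on both sides of 0. Of 13 past the floor, 7 were brighter and 6 dimmer in impaired cells, with a median of 0.03. Of all genes past the floor, 50.2% were brighter. Cd8a stood at 11.42 in impaired cells, against 12.12 in wildtype cells, a difference of -0.70, and was the only one of the 13 past 1.5-fold, where 7.39% of all genes past the floor were. Cd8b1, the other CD8 chain, stood at 9.72 in impaired cells, against 9.80 in wildtype cells (-0.09), and Cd4 differed by 0.04. Myb, which promotes Gata3 in thymocytes, differed by 0.58, Zbtb7c, a relative of Zbtb7b, by 0.29, and Socs1, a repressor of cytokine signals, by 0.18. The wildtype value of Zbtb7c was below the floor. With the floor asked of both samples 6 genes of this list were brighter, with a median of 0.00. The CD8 and gamma-delta list given with the TH1 genes holds Cd8a and Cd8b1. Without these and Gzma, its other 3 genes were Trgv1 at -0.40, Cd160 at -0.39 and Sox13 at 0.24, the last named after its value was seen, and their part in these values was not tested.

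The RUNX motif is shown because RUNX factors are known to silence Zbtb7b and to control their own genes. TGTGGT on either strand stood upstream of 2 lineage factors, in 2 of the 14 windows, against 14.0% of all windows. This count is near the share of all windows and does not set the lineage factors apart. One is the upstream start of Runx3, on the plus strand at chr4:135120395-135120644, with 2 matches at -134 and -126. The other is the downstream start of Zbtb7b, on the minus strand at chr3:89387672-89387921, with 1 match at -89. The matches are in capitals, and ACCACA is the motif on the other strand. They are matches of letters, and binding was not measured.
Runx3: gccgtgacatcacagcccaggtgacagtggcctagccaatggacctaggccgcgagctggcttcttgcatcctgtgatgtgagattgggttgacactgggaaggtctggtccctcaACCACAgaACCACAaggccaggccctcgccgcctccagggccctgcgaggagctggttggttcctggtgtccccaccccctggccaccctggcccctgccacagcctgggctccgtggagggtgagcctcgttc
Zbtb7b: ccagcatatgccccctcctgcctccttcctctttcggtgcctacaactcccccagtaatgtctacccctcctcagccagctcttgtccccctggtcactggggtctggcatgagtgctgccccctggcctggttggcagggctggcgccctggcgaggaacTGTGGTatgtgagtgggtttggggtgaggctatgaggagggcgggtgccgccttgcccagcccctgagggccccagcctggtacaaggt
The motif AGATAA of GATA factors, searched on both strands, was in none of the 14 windows, against 9.99% of all windows. The T-box motif, written GGTGTGA and searched in the same way, was in none of the 14 windows either, against 3.33% of all windows. The ROR motif also gave a count of 0 when it was searched as AGGTCA on both strands, against 14.0% of all windows.

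Id2 and Id3 differed in opposite directions. Both encode proteins that bind E proteins without binding DNA. Id2, which prevails in effector T cells, stood at 13.72 in impaired cells, against 13.82 in wildtype cells, a difference of -0.10. Id3, which prevails in naive and memory precursor cells, stood at 7.20 in impaired cells, against 6.86 in wildtype cells, a difference of 0.34 or 1.27-fold. The ratio of Id2 to Id3 thus differed by -0.44, or 1.36-fold. The wildtype value of Id3 was below the floor, and the 2140 genes of like level had a median difference of 0.15. Id2 was so bright that only 67 genes past the floor lay within 0.5 of it, and their middle 95% ran from -0.25 to 0.22.

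E proteins, the other ID genes and related helix-loop-helix factors were all brighter in impaired cells. The 8 genes of that list passed the floor and lay above 0, against 50.2% of all genes past the floor. Their median was 0.24, and none reached 1.5-fold, against 7.39% of all genes past the floor in either direction. Hes1 passed through the impaired sample alone. With the floor asked of both samples 7 were above 0, with a median of 0.20. Id1, another ID gene, stood at 8.80 in impaired cells, against 8.22 in wildtype cells (0.58), Hes1, a Notch target, differed by 0.47, Lyl1, a partner of E proteins, by 0.29 and Tcf3, which encodes E2A, by 0.27. Tcf12, which encodes HEB, the other E protein active in T cells, stood at 11.52 in impaired cells, against 11.50 in wildtype cells (0.02). Id1 and Hes1 are also made by epithelial cells, whose markers were brighter in impaired cells, and the part of these cells in the values was not tested.

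Genes that E proteins activate had a median near 0. Of 6 past the floor, 5 were dimmer in impaired cells and 1 brighter, with a median of -0.08. Of all genes past the floor, 49.5% were dimmer. Il7r, the IL-7 receptor chain, differed by 0.27, Gfi1 by -0.16, Notch1 by -0.10 and Notch3 by -0.09. The thymic targets Rag1, Rag2 and Ptcra, named after their values were seen, were below the floor in both samples. The E-box CANNTG, the site of E proteins, stood upstream of 6 of the 10 lineage factors, in 7 of 14 windows, against 66.2% of all windows. Id2 was among these 6 and Id3 was not.

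The 2 samples differed more in markers of some other cell types than in the lineage factors. Past the floor, 9 of 9 neutrophil markers were brighter in impaired cells, against 50.2% of all genes, with a median of 1.83. Some of the 9, Mmp8 among them, passed through the impaired sample alone. With the floor asked of both samples 6 were kept, all brighter, with a median of 1.90. The summed linear signal of neutrophil markers was 7060 in impaired cells, against 2290 in wildtype cells. For enterocyte markers the sum was 37337 in impaired cells, against 20839 in wildtype cells. For goblet and Paneth cell markers it was 55294 in impaired cells, against 33621 in wildtype cells. General T cell markers had a median of -0.02 over 13 genes, with a sum of 67877 in impaired cells, against 69138 in wildtype cells. TR1 markers had a median of -0.05, with a sum of 59588 in impaired cells, against 61190 in wildtype cells. Pancreatic acinar markers were dimmer for 11 of 12, with a median of -1.44. Their sum was 4505 in impaired cells, against 11894 in wildtype cells. The part of these cells in the values of Zbtb7b, Id3, Eomes and Bcl6 was not tested.

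**Figure D4:**
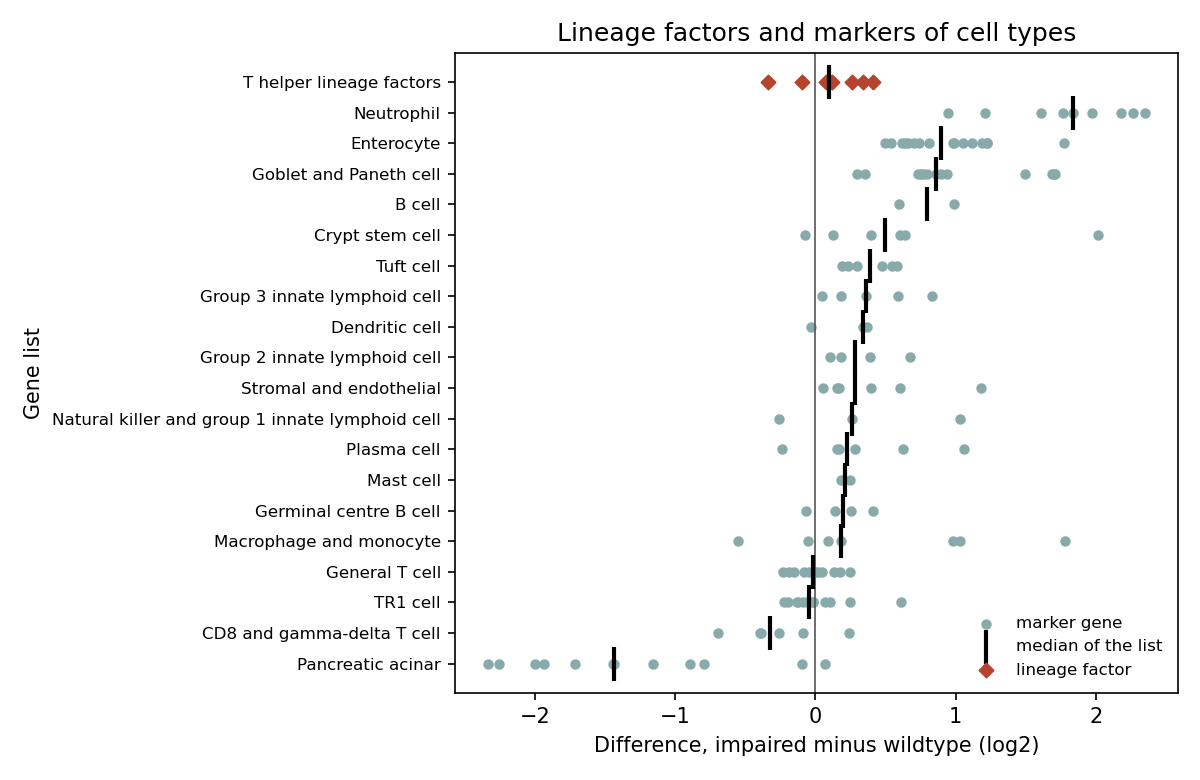
Difference (log2, impaired minus wildtype) of the 10 lineage factors (top row, median 0.10) above lists of cell type markers ordered by their median, which is shown as a black tick. Points are genes past the floor. Neutrophil markers have a median of 1.83, enterocyte markers one of 0.90 and general T cell markers one of -0.02.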

How the data were processed

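RNA of TR1 cells was measured on 1 Affymetrix array per genotype. Per the submitters' processing notes, the deposited log2 values were made by the authors with affy and RMA, which corrects background, equalises the arrays and combines the probes of each probe set. No version is named for either tool, and the genome build was not given in the sources used here. Medians over all 34760 probe sets were 6.92 in impaired cells, against 6.89 in wildtype cells. No depth or detection calls were used here, and the number of arrays limits their precision.

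Probe sets were named from GEO's platform annotation: 21640 had 1 gene symbol and were used, 1321 had several and 11799 were not listed and are unnamed here. All 10 lineage factors matched a RefSeq gene by Entrez identifier. A gene with several probe sets took its brightest on average, and each lineage factor had 1. Genes passed a floor when the brighter sample reached 6.91, the median of all probe sets after averaging the arrays. The log2 difference is impaired minus wildtype. With 1 array per genotype no test was made, and genes were counted at 2-fold and 1.5-fold. Upstream sequences of 250 bases came from RefSeq (GRCm38.p6) and were searched on both strands. Genes named in the text are the lineage factors, the up to 4 members of each of 31 lists with the largest absolute difference, and 20 further genes, with exceptions marked. The lineage factors and the lists were chosen with earlier results of these data known. The alternatives were loess or median centring, an offset of 32 on the linear scale, a stricter floor at the 75th percentile (8.86), the floor in both samples or none, the mean or the dimmest of a gene's probe sets and the 1.5-fold rule. The computation was tested on simulated data. It used Python 3.11.15, numpy 2.4.6, pandas 2.3.3, statsmodels 0.14.6 and matplotlib 3.10.9.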

Additional observations from a re-analysis of the deposited data

How the results depend on the processing

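No paired analysis was possible because there was 1 array per genotype, and for the same reason no replicate could be left out. None of the 10 lineage factors passed 2-fold under any alternative, and none passed with the 1.5-fold rule. Their median difference ran from 0.09 to 0.15 over the alternatives. Of 76 differences of single lineage factors under the alternatives, 0 changed sign and 0 moved by more than 0.25, the scaled median absolute deviation of all genes past the floor. Only loess centring, median centring and the offset could move them, so most of the 76 were fixed in advance. Each factor had 1 probe set, and a floor only keeps or leaves out a gene. Loess centring gave the highest value of Zbtb7b, 0.45, and lowered Eomes to 0.20. An offset of 32 lowered Id3 to 0.27, and Bcl6 stayed between -0.34 and -0.30. A floor at the 75th percentile or in both samples left out Eomes and Id3, which kept 8 of 10. Il17a put 1 TH17 gene past 2-fold after loess or median centring. With no floor 5 of the 12 measured E protein targets were above 0, and with the stricter floor 0 of the BCL6 partners were. The same floor left Mga (-0.21) as the only other T-box gene. Marker lists without the genes they share with the T cell lists, an alternative chosen after seeing the data, left Tyrobp alone (1.03) of the natural killer list, Kit alone of the mast cell list and 2 genes of the group 3 list past the floor. Dim signal limits Eomes and Id3, since no detection call was at hand.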

Other observations

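Other transcription factors of T cell fate were split about evenly. Of 30 past the floor, 16 were brighter and 14 dimmer in impaired cells, with a median of 0.03. Of all genes past the floor, 50.2% were brighter. None of the 30 reached 1.5-fold, against 7.39% of all genes past the floor in either direction. Foxp3, which directs regulatory T cells, stood at 7.87 in impaired cells, against 7.83 in wildtype cells. Myb, a factor of progenitor and memory-like T cells, stood at 8.70 in impaired cells, against 8.12 in wildtype cells (0.58), and Lef1, a factor of naive T cells, at 8.56 in impaired cells, against 8.15 in wildtype cells (0.41). Bhlhe40, which restrains Il10 in T cells, differed by 0.33. Hopx, a factor of effector T cells, was dimmer, at 8.59 in impaired cells, against 8.93 in wildtype cells (-0.34). Tcf7, which works with Lef1, was not analysed here.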
